A study of Homo sapiens with 12 samples.

Results

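The 39 genes described here encode proteins of the centromere and of the kinetochore, the protein assembly that links chromosomes to spindle microtubules in mitosis. They were chosen by gene symbol from 6 functional classes, and all 39 were found among the 18987 genes that both tables of expression values hold. The cells were IMR5, an established neuroblastoma line of human origin that carries extra copies of the oncogene MYCN, and their total RNA was sequenced. In 1 experiment the cells were grown for 24 h with 100 nM selinexor, a drug that blocks the cargo groove of XPO1, the main receptor for protein export from the nucleus, or with DMSO, the solvent, for a time the labels do not give. In the other, a single siRNA against XPO1 or a control siRNA was introduced by nucleofection and RNA was taken at 72 h. There were 3 libraries in each of the 4 groups, all of 1 cell line, and selinexor and the siRNA differ in duration and delivery as well as in agent.

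A centromere is marked by nucleosomes that hold the histone variant CENP-A in place of H3. The inner proteins of the constitutive centromere-associated network stay bound to this chromatin, and in mitosis they recruit the outer KMN network, which grips microtubules. The SKA complex tracks microtubule ends, the corona proteins bring motors and checkpoint proteins, and the shugoshins and the chromosomal passenger complex guard cohesion and correct faulty attachments. Many of these genes are transcribed mainly in late cell cycle, and in bulk RNA fewer cells in those stages and less RNA per cell cannot be told apart.

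Values are the authors' normalized read counts per library, in which raw counts were divided by a size factor for each library. Estimated depth was 26.8 to 33.8 M reads per selinexor library, 39.5 to 40.9 M per DMSO library, 33.5 to 55.8 M per XPO1 siRNA library and 40.6 to 54.0 M per control siRNA library. The lowest mean of any of the 39 genes in any group was 126, so all of them passed the filter on low values. Fold changes were computed as differences of log2(value + 1), and a gene was called where limma's Benjamini-Hochberg adjusted p, over all genes tested in a comparison, was below 0.05. Nothing in the labels ties the replicates to separate cultures, and a p-value here covers just the spread among these libraries, which may be technical. Selinexor replicate 1 stood apart, with log2 correlations of 0.972 to replicate 2 and 0.973 to replicate 3, against 0.987 between replicates 2 and 3. XPO1, the gene targeted by the siRNA, averaged 4344 ± 74.0 in the XPO1 siRNA libraries and 18809 ± 209.8 in the control siRNA libraries (log2 fold change -2.11, SE 0.0311, limma adjusted p = 2.91e-14, SD, n = 3 each). Of 9 neuroblastoma markers, 8 had a mean of 10 or more in each table. Their summed level was 82687 to 96806 in selinexor libraries and 68632 to 71160 in DMSO libraries, and 96606 to 102918 in XPO1 siRNA libraries and 78965 to 81017 in control siRNA libraries. The ninth marker, TH, averaged 5.50 ± 3.81 in XPO1 siRNA libraries and 5.41 ± 2.15 in control siRNA libraries. Of 17 markers of leukocytes, endothelial cells, fibroblasts, epithelium and Schwann cells, 7 were analysed with selinexor and summed to 816 to 1804 in selinexor libraries and 780 to 876 in DMSO libraries. In the knockdown experiment 6 were analysed, and they summed to 1072 to 1103 in XPO1 siRNA libraries and 1121 to 1360 in control siRNA libraries. The part of these marker differences in the results below was not tested.

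Promoters are shown because most of these genes moved together. RefSeq windows on GRCh38.p14, from 250 bases before to 50 bases after the gene's start, matched 32 of the 39 genes by symbol, and the first window was used for 5 genes that have more than 1. Cell cycle promoters are known for the cell cycle genes homology region, or CHR, and for CCAAT boxes upstream of it. Searched on both strands, the CHR words TTTGAA or TTCGAA were held by 19 of the 32 windows, 59.4%, against 16.6% of all 27305 windows in the RefSeq table and 11.3% of the 10839 windows of genes in the selinexor table. CCAAT was held by 21 windows, 65.6%, against 35.7% and 36.3% of the same backgrounds. Both were held by 14 windows, 43.8%, against 6.58% and 4.70%. An E2F word (TTTCCCGC, TTTCGCGC, TTTGCCGC or TTTGGCGC) was held by 3 windows, 9.38%, against 3.33% and 5.04%. These matches describe letters in a window and are not measured binding sites. Capitals mark these words on either strand in the 6 promoters below, written 5′ to 3′ on the gene's strand. The first 3 belong to genes with the largest fall of their class with selinexor. They are not the 3 largest falls of all, and each holds both a CHR word and CCAAT. SKA1, which also had the largest fall of its class, is not printed, and its window holds a CHR word and no CCAAT box. The last 3 belong to the genes called higher with the siRNA. CENPA lies at chr2:26785806-26786105 on the plus strand, SPC25 at chr2:168890381-168890680 on the minus strand and CDCA8 at chr1:37692266-37692565 on the plus strand. CENPE lies at chr4:103198294-103198593 and CENPT at chr16:67847644-67847943, both on the minus strand, and CENPF at chr1:214602945-214603244 on the plus strand.
CENPA: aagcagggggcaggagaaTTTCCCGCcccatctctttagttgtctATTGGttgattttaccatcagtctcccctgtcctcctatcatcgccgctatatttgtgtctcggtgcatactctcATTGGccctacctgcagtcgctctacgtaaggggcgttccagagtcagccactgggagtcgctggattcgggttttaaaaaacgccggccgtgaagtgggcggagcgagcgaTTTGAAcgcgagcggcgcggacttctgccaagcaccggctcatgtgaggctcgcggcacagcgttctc
SPC25: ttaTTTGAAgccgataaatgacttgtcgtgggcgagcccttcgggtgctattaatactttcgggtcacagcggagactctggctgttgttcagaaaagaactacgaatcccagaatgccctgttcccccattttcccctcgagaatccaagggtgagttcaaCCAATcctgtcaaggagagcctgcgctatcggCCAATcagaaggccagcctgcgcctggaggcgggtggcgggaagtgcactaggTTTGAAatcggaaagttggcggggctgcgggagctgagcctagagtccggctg
CDCA8: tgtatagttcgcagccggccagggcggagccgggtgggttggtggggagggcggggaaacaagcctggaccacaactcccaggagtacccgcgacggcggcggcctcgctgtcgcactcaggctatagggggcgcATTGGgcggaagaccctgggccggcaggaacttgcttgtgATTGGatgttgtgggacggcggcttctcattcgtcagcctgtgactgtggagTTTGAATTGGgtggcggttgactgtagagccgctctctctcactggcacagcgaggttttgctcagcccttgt
CENPE: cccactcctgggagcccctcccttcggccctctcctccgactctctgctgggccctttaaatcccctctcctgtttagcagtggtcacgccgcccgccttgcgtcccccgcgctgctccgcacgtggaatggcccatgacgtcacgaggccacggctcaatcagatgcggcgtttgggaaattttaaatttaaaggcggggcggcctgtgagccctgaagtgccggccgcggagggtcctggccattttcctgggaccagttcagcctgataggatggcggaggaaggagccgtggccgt
CENPT: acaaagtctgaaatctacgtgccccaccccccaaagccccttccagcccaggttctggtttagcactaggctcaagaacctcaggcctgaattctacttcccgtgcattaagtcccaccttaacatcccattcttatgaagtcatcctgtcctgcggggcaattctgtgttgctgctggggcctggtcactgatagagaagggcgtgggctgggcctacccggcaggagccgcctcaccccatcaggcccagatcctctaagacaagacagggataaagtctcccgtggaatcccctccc
CENPF: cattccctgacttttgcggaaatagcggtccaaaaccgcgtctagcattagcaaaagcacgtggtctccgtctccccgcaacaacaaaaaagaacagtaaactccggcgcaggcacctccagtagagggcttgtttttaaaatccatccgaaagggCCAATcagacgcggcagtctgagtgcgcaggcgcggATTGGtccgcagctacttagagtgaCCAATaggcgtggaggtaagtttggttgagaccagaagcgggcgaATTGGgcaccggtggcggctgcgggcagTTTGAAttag

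A CHR word begins 18 bases before the start in CENPA, 3 bases before it in SPC25 and 23 bases before it in CDCA8. In CDCA8 the CHR word and a CCAAT box on the other strand overlap, the 1 such case in the 32 windows. SPC25 holds another CHR word 247 bases before the start. The windows of CENPE and CENPT hold none of the words, but that of CENPF, the other gene called higher with the siRNA, holds 1 CHR word and 4 CCAAT boxes. No word was found for CENPI, DSN1, CENPP and NSL1 either. CENPI fell by 2.16 on the log2 scale with selinexor, but whether its window covers the start used in these cells was not tested. SKA1 and SKA3, with the largest falls, hold a CHR word and no CCAAT box. SPC24 and SGOL2 hold CCAAT and no CHR word, with log2 fold changes of -2.15 and -2.08 with selinexor. With selinexor the median log2 fold change was -1.79 for genes with a CHR word (n = 19, range -2.47 to -0.92), and -1.41 for those without (n = 13, range -2.16 to -0.069). With the siRNA the medians were -0.52 and -0.33, and in both experiments the ranges overlapped. CENPI, with its uncertain window, is among the genes without a CHR word.

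With selinexor, transcripts of nearly the whole assembly fell. Of the 39 genes, 38 were called lower and 0 higher, whereas 26.3% of all 18128 genes tested were called lower, 22.9% higher and 49.2% in either direction. The median log2 fold change of the 39 genes was -1.68, a 3.20-fold fall, against -0.0076 over all genes tested. A fall of at least 1 on the log2 scale was called for 34 of them, against 5.53% of all genes. In 38 genes every selinexor library was below every DMSO library, against 32.9% of all genes. Standard errors ran from 0.0778 to 0.260, and the largest adjusted p among the called genes was 0.000981 (limma). Selinexor replicate 1 was the lowest of the 3 selinexor libraries in 33 genes and the highest in 3. Against the DMSO mean, the median log2 ratio of the 39 genes was -1.87 in replicate 1, -1.57 in replicate 2 and -1.57 in replicate 3. Without replicate 1 the median log2 fold change was -1.58 and the same number, 38, were called lower.

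With the XPO1 siRNA the falls were smaller and 3 genes went the other way. Of the 39 genes, 34 were called lower, 3 higher and 2 not called, whereas 28.6% of all 17616 genes tested were called lower, 25.9% higher and 54.5% in either direction. The genes called higher were CENPT, CENPE and CENPF, and the genes not called were CENPC and CENPO. The median log2 fold change was -0.39, a 1.31-fold fall, against 0.0024 over all genes. A fall of at least 1 on the log2 scale was called for 0 of the 39, against 1.53% of all genes. In 35 genes every XPO1 siRNA library was below every control siRNA library, against 31.2% of all genes. With libraries rescaled to equal totals, 32 were lower and 3 higher, the median was -0.30, and CENPP and ZW10 were no longer called. At that setting 3647 of all genes were called lower and 6057 higher, against 5042 and 4561 in the main fit.

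**Figure D1:**
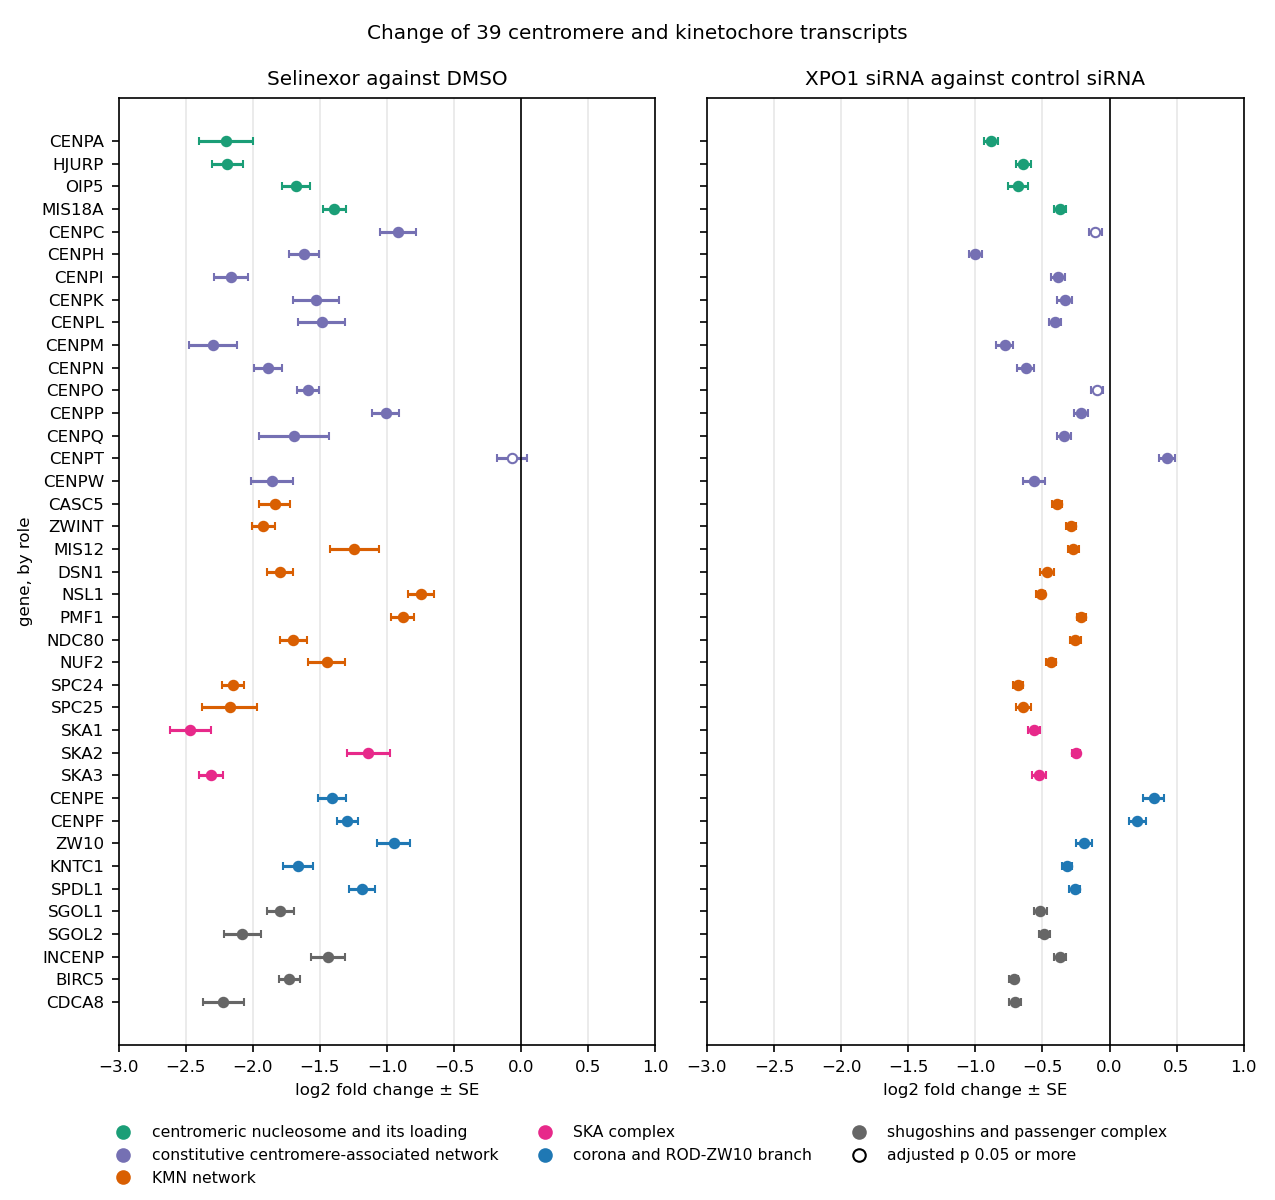
Log2 fold change ± SE of each of the 39 genes, ordered by role, with selinexor against DMSO on the left and XPO1 siRNA against control siRNA on the right (3 libraries per group). Filled points had a limma adjusted p below 0.05 and open points did not. On the left 38 points lie left of 0 and filled, and on the right 34 do, with CENPT, CENPE and CENPF to the right of 0.

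Each effect was formed within its own table and the 2 were compared in 1 model over 12 libraries. For 38 of the 39 genes the change with selinexor was called lower than the change with the siRNA, where 20.2% of all 17332 genes tested were called lower, 11.6% higher and 31.8% in either direction. The median difference was -1.29 on the log2 scale, against -0.068 over all genes. Among the 36 genes with a fall in both experiments, called or not, the siRNA change was a median 24.7% of the selinexor change on the log2 scale, and in 34 of them it was below 50%. The exceptions were CENPH and NSL1. NSL1 did not pass the test of the difference (difference -0.24, SE 0.101, limma adjusted p = 0.0918). It passed without selinexor replicate 1 (difference -0.14, limma adjusted p = 0.0434) and without selinexor replicate 2 (difference -0.30, limma adjusted p = 0.0241). Differences in duration, delivery and agent cannot be told apart in this design.

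**Figure D2:**
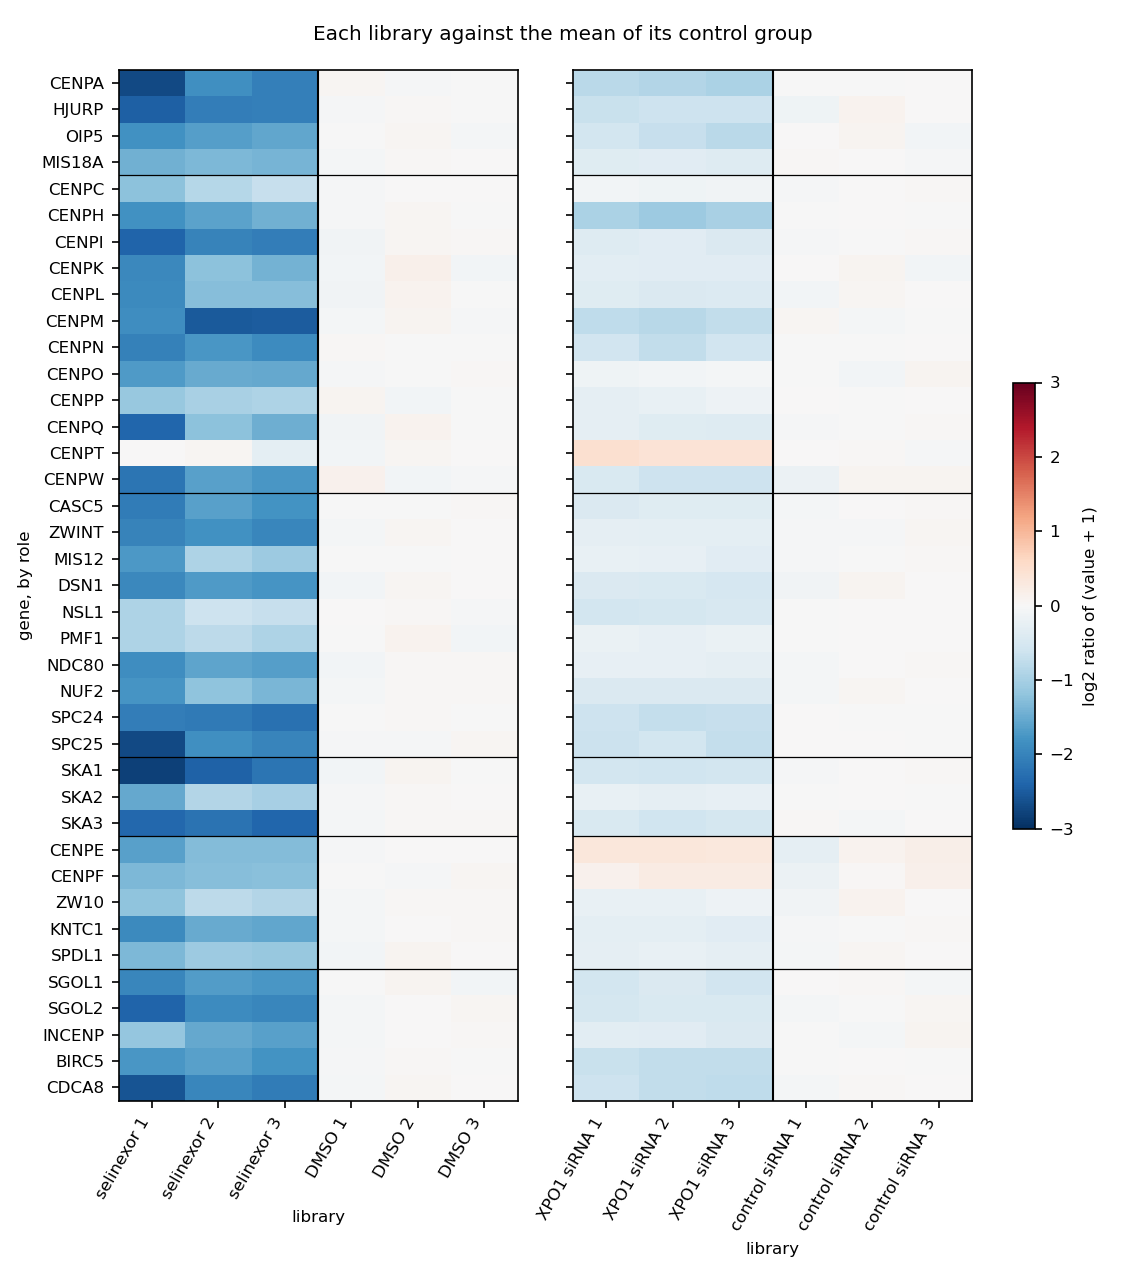
Colour gives the log2 ratio of (value + 1) in each library to the mean of its own control group, with genes in rows ordered by role and libraries in columns. The 3 selinexor columns are blue in every row but CENPT, with a median of -1.87 in replicate 1 and -1.57 in replicates 2 and 3, and the XPO1 siRNA columns are paler, with red for CENPT, CENPE and CENPF.

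The 4 genes of the centromeric nucleosome and its loading were lower in both experiments, with a median log2 fold change of -1.93 with selinexor and -0.66 with the siRNA. CENPA encodes the centromeric histone variant itself (hg19 chromosome 2, 26987157 to 27023936). It read 121, 222 and 191 in the selinexor libraries, against 826, 783 and 785 in the DMSO libraries. It read 604, 569 and 542 in the XPO1 siRNA libraries, against 1052, 1050.1 and 1060.3 in the control siRNA libraries. Replicate 1 of selinexor was the lowest, and the groups did not overlap in either experiment. CENPA had the largest change of its class in both, 4.60-fold down with selinexor (log2 fold change -2.20, SE 0.201, limma adjusted p = 6.32e-05) and 1.84-fold down with the siRNA (log2 fold change -0.88, SE 0.0551, limma adjusted p = 2.11e-08). HJURP, the chaperone that deposits CENP-A, fell nearly as far with selinexor (log2 fold change -2.19, SE 0.116, limma adjusted p = 3.74e-06) and had a log2 fold change of -0.64 with the siRNA. OIP5, a subunit of the MIS18 complex that licenses the deposition, had a log2 fold change of -1.68 with selinexor and -0.68 with the siRNA. MIS18A, its partner subunit, had the smallest change of the class. It read 452, 488 and 474 in selinexor libraries, against 1198, 1278 and 1240.2 in DMSO libraries (log2 fold change -1.39, SE 0.0842, limma adjusted p = 7.01e-06). With the siRNA it read 978, 996 and 969, against 1288, 1282 and 1227 with control siRNA (log2 fold change -0.37, SE 0.0456, limma adjusted p = 1.40e-05). All libraries of each treated group were below all of their controls. OIP5 overlaps the more abundant OIP5-AS1 on the opposite strand by 437 bases, and CENPA overlaps SLC35F6 by 16944 bases on the same strand. Whether strand was used in counting is not given in the sources used here, so reads of such pairs may be shared. OIP5-AS1 had a log2 fold change of -0.35 with selinexor and -0.16 with the siRNA, and SLC35F6 of -0.49 and -0.072, all smaller than those of OIP5 and CENPA.

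Of the 12 genes of the constitutive centromere-associated network, 11 were lower with selinexor, with a median log2 fold change of -1.60, and CENPT was not called. With the siRNA 9 were lower, CENPT was higher, and CENPC and CENPO were not called, with a median of -0.36. CENPM, a small G protein-like subunit that sits with CENPH, CENPI and CENPK, had the largest fall of the class with selinexor. It read 167, 105 and 107 in selinexor libraries, against 586, 650.3 and 594 in DMSO libraries, and here replicate 1 was the highest of the selinexor libraries. The groups lay far apart (log2 fold change -2.30, SE 0.180, limma adjusted p = 2.75e-05). With the siRNA CENPM read 354, 340.0 and 361, against 629, 583 and 604 with control siRNA (log2 fold change -0.78, SE 0.0640, limma adjusted p = 2.87e-07). CENPI fell to a similar depth with selinexor (log2 fold change -2.16, SE 0.124, limma adjusted p = 5.37e-06) but had a log2 fold change of -0.38 with the siRNA, a difference that passed the test (difference -1.78, SE 0.133, limma adjusted p = 8.77e-07).

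CENPH, a further subunit of that group, was the gene with the largest fall of all 39 with the siRNA. It read 1192, 1081 and 1177 in XPO1 siRNA libraries, against 2272, 2326 and 2297 in control siRNA libraries. All 3 XPO1 siRNA libraries were far below the controls, with levels 1.999 times lower (log2 fold change -0.999, SE 0.0463, limma adjusted p = 1.15e-09). With selinexor CENPH read 420.0, 490.4 and 551, against 1462, 1541 and 1468 with DMSO (log2 fold change -1.62, SE 0.112, limma adjusted p = 1.33e-05). The siRNA change was 61.7% of the selinexor change on the log2 scale, and the fall was still larger with selinexor (difference -0.62, SE 0.121, limma adjusted p = 0.00191).

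CENPT, which binds DNA and recruits the NDC80 complex directly, departed from its network in both experiments (hg19 chromosome 16, 67862060 to 67881715). It read 646, 659.5 and 522 in selinexor libraries, against 602, 665 and 641 in DMSO libraries. Replicate 3 was the lowest of the 6, and the groups overlapped, with no call (log2 fold change -0.069, SE 0.114, limma adjusted p = 0.636). Without selinexor replicate 3 the log2 fold change was 0.038 (limma adjusted p = 0.773), and it lay between -0.20 and 0.038 over all alternatives. With the siRNA CENPT read 675, 643 and 641, against 486, 497 and 472 with control siRNA. Every XPO1 siRNA library was above every control siRNA library (log2 fold change 0.43, SE 0.0583, limma adjusted p = 3.19e-05). This rise was called in every alternative tried, with log2 fold changes of 0.40 to 0.52. CENPW, the partner of CENPT in a histone fold pair, fell with selinexor (log2 fold change -1.86, SE 0.155, limma adjusted p = 3.85e-05) and with the siRNA (log2 fold change -0.57, SE 0.0823, limma adjusted p = 5.78e-05). CENPT overlaps NUTF2 and THAP11 on the opposite strand, and these had log2 fold changes of -0.65 and -0.59 with selinexor and both of -0.22 with the siRNA. Another neighbour on that strand, TSNAXIP1, had 0.85 with selinexor and 1.41 with the siRNA at a mean value of 22.5 in the selinexor table.

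CENPO and CENPC fell with selinexor and were not called with the siRNA. CENPO belongs to a subcomplex with CENPP and CENPQ that helps to bring a mitotic kinase to the kinetochore. It read 913, 1038 and 1021 in selinexor libraries, against 2927, 2976 and 3029 in DMSO libraries (log2 fold change -1.59, SE 0.0837, limma adjusted p = 3.64e-06). In XPO1 siRNA libraries it read 2411, 2498 and 2511, against 2614, 2494 and 2798 in control siRNA libraries. These last groups overlapped, since control replicate 2 lay below 2 of the XPO1 siRNA libraries (log2 fold change -0.09, SE 0.0451, limma adjusted p = 0.108). Without control siRNA replicate 2 CENPO was called lower with the siRNA (log2 fold change -0.13, limma adjusted p = 0.0246), and without control siRNA replicate 3 the log2 fold change was -0.046. The difference between the 2 effects was among the 6 with the smallest p (difference -1.50, SE 0.0916, limma adjusted p = 1.63e-07). CENPC, which bridges CENP-A nucleosomes and the MIS12 complex, averaged 569 ± 104 with selinexor and 1063 ± 17.6 with DMSO (log2 fold change -0.92, SE 0.135, limma adjusted p = 0.000804). With the siRNA CENPC averaged 996 ± 16.6, against 1072 ± 32.2 with control siRNA, without overlap but with no call (log2 fold change -0.11, SE 0.0472, limma adjusted p = 0.0723). The remaining genes of the network were called lower in both experiments. CENPN, which reads the CENP-A nucleosome, had log2 fold changes of -1.89 with selinexor and -0.62 with the siRNA, and CENPL, its partner, of -1.49 and -0.41. CENPQ had -1.69 and -0.34, CENPK had -1.53 and -0.33, and CENPP had -1.01 and -0.21.

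**Figure D3:**
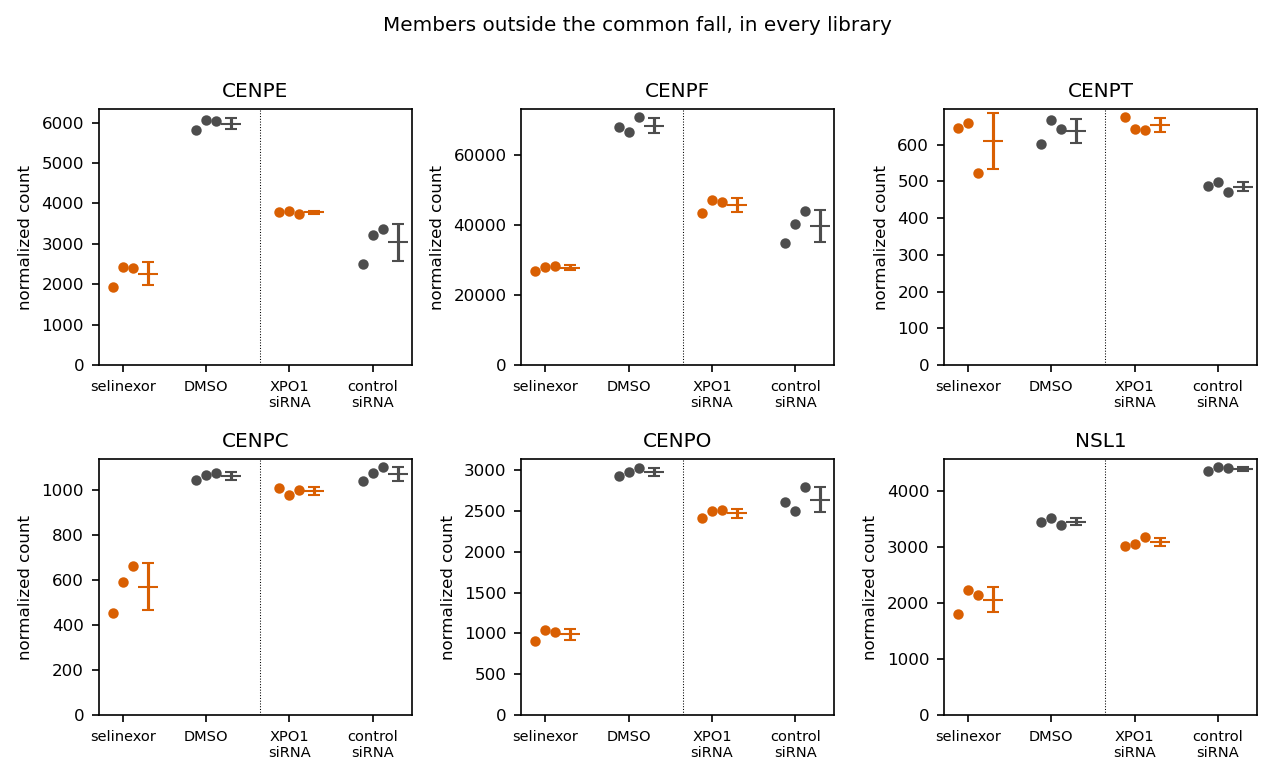
Normalized count in each library, points from left to right being replicates 1 to 3, with mean ± SD beside them, for 6 genes outside the common pattern. CENPE and CENPF are lower with selinexor and higher with the XPO1 siRNA, CENPT is higher with the siRNA alone, CENPC and CENPO are near their control siRNA level, and NSL1 is lower in both experiments, with a difference between them of -0.24 that was not called.

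All 10 genes of the KMN network, which comprises the KNL1, MIS12 and NDC80 complexes, were lower in both experiments, with a median log2 fold change of -1.75 with selinexor and -0.41 with the siRNA. SPC24 and SPC25 form the inner end of the NDC80 complex. SPC25 read 116, 210.3 and 192 in selinexor libraries, against 744, 739 and 797 in DMSO libraries, and had the largest fall of the network with selinexor (log2 fold change -2.17, SE 0.204, limma adjusted p = 7.22e-05). SPC25 read 613, 658 and 582 in XPO1 siRNA libraries, against 965, 974 and 950.2 in control siRNA libraries (log2 fold change -0.64, SE 0.0570, limma adjusted p = 5.97e-07). SPC24 read 853, 829 and 757 in selinexor libraries, against 3549, 3665 and 3603 in DMSO libraries (log2 fold change -2.15, SE 0.0817, limma adjusted p = 7.10e-07). The log2 fold changes of SPC25 and SPC24 with selinexor differed by less than their SEs. With the siRNA SPC24 read 2723, 2551 and 2603, against 4229, 4194 and 4205 with control siRNA, the largest change of the network there (log2 fold change -0.68, SE 0.0367, limma adjusted p = 5.23e-09).

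NDC80 and NUF2 form the microtubule-binding end of the same complex. NDC80 read 655, 802 and 759 in selinexor libraries, against 2261, 2465 and 2455 in DMSO libraries (log2 fold change -1.70, SE 0.0997, limma adjusted p = 6.04e-06). With the siRNA it read 1999.7, 1993 and 1967, against 2277, 2398 and 2443 with control siRNA (log2 fold change -0.26, SE 0.0401, limma adjusted p = 0.000112). The groups were separate in both, but the siRNA change was small, and the difference was among the 6 with the smallest p (difference -1.44, SE 0.105, limma adjusted p = 6.86e-07). NUF2 had a log2 fold change of -1.45 with selinexor and -0.43 with the siRNA. ZWINT binds KNL1 and links it to the ROD-ZW10 branch. It read 1066, 1221 and 1101 in selinexor libraries, against 4108, 4434 and 4304 in DMSO libraries (log2 fold change -1.92, SE 0.0853, limma adjusted p = 1.62e-06). ZWINT read 3183, 3143 and 3174 in XPO1 siRNA libraries, against 3779.6, 3779 and 4029 in control siRNA libraries (log2 fold change -0.29, SE 0.0372, limma adjusted p = 2.16e-05). Its difference between the 2 effects had the smallest p of the 39 genes (difference -1.64, SE 0.0879, limma adjusted p = 7.81e-08). CASC5, the older symbol of KNL1, the scaffold of the spindle checkpoint, had log2 fold changes of -1.84 with selinexor and -0.39 with the siRNA. DSN1, a subunit of the MIS12 complex, had -1.80 and -0.46, and MIS12 had -1.24 and -0.27.

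The remaining MIS12 complex subunits, NSL1 and PMF1, had the smallest falls of the network with selinexor. NSL1 read 1801, 2236 and 2139 in selinexor libraries, against 3444, 3508 and 3380.4 in DMSO libraries (log2 fold change -0.75, SE 0.0971, limma adjusted p = 0.000412). With the siRNA NSL1 read 3021, 3057 and 3166, against 4354, 4426 and 4401 with control siRNA (log2 fold change -0.51, SE 0.0348, limma adjusted p = 4.72e-08). The siRNA change of NSL1 was 68.4% of its selinexor change, the highest share among the 36 genes. PMF1 read 1453, 1596 and 1466 in selinexor libraries, against 2740.0, 2964 and 2621 in DMSO libraries (log2 fold change -0.88, SE 0.0856, limma adjusted p = 8.66e-05). In XPO1 siRNA libraries it read 2589, 2506 and 2578, against 2933, 2974 and 2964 in control siRNA libraries (log2 fold change -0.21, SE 0.0356, limma adjusted p = 0.000219). With the length trend removed, PMF1 was no longer called with the siRNA (log2 fold change -0.080, limma adjusted p = 0.0668). PMF1 shares its span with the read-through gene PMF1-BGLAP on the same strand, so its count is uncertain.

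The SKA complex consists of SKA1, SKA2 and SKA3, and its 3 transcripts were lower in both experiments, with a median log2 fold change of -2.31 with selinexor and -0.52 with the siRNA. SKA1, the microtubule-binding subunit, read 196, 256 and 300.1 in selinexor libraries, against 1302, 1459.5 and 1351 in DMSO libraries. No other of the 39 genes fell as far, 5.53-fold (log2 fold change -2.47, SE 0.152, limma adjusted p = 7.61e-06). In XPO1 siRNA libraries SKA1 read 899, 868 and 902, against 1289, 1317 and 1343 in control siRNA libraries (log2 fold change -0.56, SE 0.0459, limma adjusted p = 2.65e-07). SKA3 read 296, 329.8 and 292 in selinexor libraries, against 1467, 1559 and 1549.9 in DMSO libraries (log2 fold change -2.31, SE 0.0908, limma adjusted p = 8.24e-07). With the siRNA SKA3 read 938, 851 and 893, against 1323, 1230.3 and 1298 with control siRNA (log2 fold change -0.52, SE 0.0523, limma adjusted p = 1.92e-06). The difference of SKA3 was among the 6 with the smallest p (difference -1.79, SE 0.0988, limma adjusted p = 9.66e-08). SKA2 had the smallest changes of the complex. It read 3822, 6106 and 5558 in selinexor libraries, against 10877, 11415 and 11185 in DMSO libraries, with replicate 1 the lowest (log2 fold change -1.14, SE 0.159, limma adjusted p = 0.000594). SKA2 read 10989, 10688 and 10971 in XPO1 siRNA libraries, against 12778, 13122 and 12882 in control siRNA libraries, without overlap (log2 fold change -0.25, SE 0.0308, limma adjusted p = 1.39e-05).

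The 5 genes of the corona and the ROD-ZW10 branch were lower with selinexor, with a median log2 fold change of -1.30. With the siRNA 3 were lower and 2 higher, with a median of -0.19. CENPE is the kinesin motor that carries chromosomes to the spindle equator (hg19 chromosome 4, 104026963 to 104119567). It read 1937, 2437 and 2414 in selinexor libraries, against 5812, 6067 and 6046 in DMSO libraries (log2 fold change -1.41, SE 0.103, limma adjusted p = 1.85e-05). With the siRNA it read 3791, 3814 and 3741, against 2512, 3218 and 3378 with control siRNA. The XPO1 siRNA libraries lay close together and above all 3 controls, of which replicate 1 was the lowest (log2 fold change 0.33, SE 0.0801, limma adjusted p = 0.00336). Without control siRNA replicate 1 the rise was 0.20 on the log2 scale (limma adjusted p = 0.00114), and without limma's intensity trend it was not called (limma adjusted p = 0.0665).

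CENPF is a large coiled-coil protein of the corona that binds dynein regulators (hg19 chromosome 1, 214776538 to 214837932). It read 27038, 28017 and 28493 in selinexor libraries, against 67979, 66531 and 70931 in DMSO libraries (log2 fold change -1.30, SE 0.0780, limma adjusted p = 6.75e-06). The selinexor libraries lay close together and well below all DMSO libraries. With the siRNA it read 43403, 47158 and 46677, against 34906, 40324 and 44109 with control siRNA. The groups overlapped, since control replicate 3 exceeded XPO1 siRNA replicate 1 (log2 fold change 0.21, SE 0.0653, limma adjusted p = 0.0158). Without control siRNA replicate 1 the log2 fold change was 0.12 (limma adjusted p = 0.0643). It was 0.18 without XPO1 siRNA replicate 2 (limma adjusted p = 0.0584) and 0.19 without XPO1 siRNA replicate 3 (limma adjusted p = 0.0533), so none of these kept the call, and neither did the fit without limma's intensity trend (limma adjusted p = 0.128). The effects of the 2 treatments differed for CENPF (difference -1.51, SE 0.110, limma adjusted p = 7.10e-07) and for CENPE (difference -1.74, SE 0.150, limma adjusted p = 2.96e-06).

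KNTC1, also called ROD, and ZW10 form with ZWILCH the complex that recruits dynein to kinetochores. KNTC1 read 1682, 2192 and 2124 in selinexor libraries, against 6053, 6354 and 6477 in DMSO libraries, the largest fall of the class (log2 fold change -1.66, SE 0.110, limma adjusted p = 1.10e-05). With the siRNA KNTC1 read 5097, 5085 and 4947, against 6138, 6229.9 and 6476 with control siRNA (log2 fold change -0.32, SE 0.0343, limma adjusted p = 3.99e-06). ZW10 read 410.4, 552 and 516 in selinexor libraries, against 903, 972 and 962 in DMSO libraries, the smallest fall of the class (log2 fold change -0.95, SE 0.122, limma adjusted p = 0.00039). In XPO1 siRNA libraries ZW10 read 859.6, 857 and 899, against 921, 1078 and 997 in control siRNA libraries. The groups came near each other without overlap, and control replicate 2 was the highest (log2 fold change -0.19, SE 0.0598, limma adjusted p = 0.0141). ZW10 was not called without control siRNA replicate 2 (log2 fold change -0.14, limma adjusted p = 0.0608) or without XPO1 siRNA replicate 2 (-0.18, limma adjusted p = 0.0511). SPDL1, the dynein adaptor Spindly, had log2 fold changes of -1.19 with selinexor and -0.26 with the siRNA.

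All 5 genes of the shugoshins and the chromosomal passenger complex were lower in both experiments, with a median log2 fold change of -1.79 with selinexor and -0.52 with the siRNA. CDCA8 encodes borealin, which with survivin brings the complex to the inner centromere. It read 469, 726 and 661 in selinexor libraries, against 2735, 2951 and 2847 in DMSO libraries, the largest fall of the class (log2 fold change -2.22, SE 0.153, limma adjusted p = 1.32e-05). In XPO1 siRNA libraries CDCA8 read 2101, 1939 and 1879.9, against 3084, 3294 and 3257 in control siRNA libraries (log2 fold change -0.70, SE 0.0467, limma adjusted p = 3.86e-08). BIRC5 encodes survivin and had the largest change of the class with the siRNA. It read 11690.1, 11118 and 11202 in XPO1 siRNA libraries, against 18375, 18857 and 18542 in control siRNA libraries (log2 fold change -0.71, SE 0.0323, limma adjusted p = 9.08e-10). With selinexor BIRC5 read 3747, 4054 and 3621, against 12328, 12902 and 12593 with DMSO (log2 fold change -1.73, SE 0.0778, limma adjusted p = 1.73e-06). The siRNA change of BIRC5 was 41.3% of the selinexor change. INCENP, the scaffold that activates the Aurora B kinase, had the smallest change of the class in both experiments. It read 1775, 1355 and 1279 in selinexor libraries, against 3767, 4007 and 4060.2 in DMSO libraries, with replicate 1 the highest of the treated libraries (log2 fold change -1.44, SE 0.125, limma adjusted p = 4.78e-05). INCENP read 3291, 3215 and 3006 in XPO1 siRNA libraries, against 4049, 3924 and 4312 in control siRNA libraries, without overlap (log2 fold change -0.37, SE 0.0450, limma adjusted p = 1.20e-05). SGOL1 and SGOL2, the shugoshins that protect centromeric cohesion, had log2 fold changes of -1.79 and -2.08 with selinexor and of -0.52 and -0.49 with the siRNA.

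Examining transcript length was set in advance, since earlier results of these data had CENPE and CENPF behaving apart with the siRNA. Both are among the longest of the 39 genes. Length is that of the longest coding transcript in GENCODE 29, which may not be the one expressed, and it ran from 0.75 kb for CENPW to 10.3 kb for CENPF. Across the 39 genes, Spearman's rho of log2 fold change with length was 0.446 with the siRNA (Pearson's r 0.521) and 0.153 with selinexor (Pearson's r 0.181). Over all genes with a length the siRNA values were 0.183 (Pearson's r 0.120, 15239 genes), and with selinexor -0.012 (Pearson's r -0.029, 15479 genes). These correlations are across genes of the same libraries and carry no test. Without CENPE and CENPF, rho with the siRNA was 0.368 over the other 37 genes. The 6 genes of 6.5 kb or more, which are CENPC, KNTC1, CENPE, CENPP, CASC5 and CENPF, had a siRNA median of -0.16 on the log2 scale, against -0.46 for the 33 shorter genes. CENPE and CENPF, whose behaviour in those earlier results prompted the look at length, are among these 6, and the median of the other 4 was -0.27. Among all genes the medians were 0.11 and -0.036 for the same length classes. With selinexor the long genes had a median of -1.35 and the shorter -1.70. Some genes ran against this order: CASC5, at 9.57 kb, fell by 0.39 on the log2 scale with the siRNA, and CENPT, at 2.35 kb, rose.

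Length was also followed in each library. Against the control siRNA mean, genes of 8 kb or more had median log2 ratios of 0.094 to 0.16 in the 3 XPO1 siRNA libraries, and genes under 1.5 kb had -0.19 to -0.18. Each control library was set against the mean of the other control libraries of its group. On that basis the medians in single control siRNA libraries were -0.037 to 0.038 for the long genes and -0.012 to 0.021 for the short. Across the 39 genes, rho of these log2 ratios with length was 0.386 to 0.469 in the XPO1 siRNA libraries, but also 0.494 in control siRNA replicate 3 and -0.341 in control siRNA replicate 1. Among the DMSO libraries it was -0.401 to 0.560, so single control libraries varied with length across these genes as much as the XPO1 siRNA libraries did. In control siRNA replicate 1, CENPE and CENPF were at log2 ratios of -0.39 and -0.27 to the mean of the other control siRNA libraries. After each library's trend with length was removed, rho of the 39 genes with the siRNA was 0.234 and that of all genes -0.016. CENPE then had a rise of 0.20 (limma adjusted p = 0.0331), and CENPF was not called (log2 fold change 0.056, limma adjusted p = 0.421). CENPC was then called lower with the siRNA (log2 fold change -0.20, limma adjusted p = 0.00203), and so was CENPO (log2 fold change -0.13, limma adjusted p = 0.0219). With selinexor the 38 falls were called with or without this step.

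**Figure D4:**
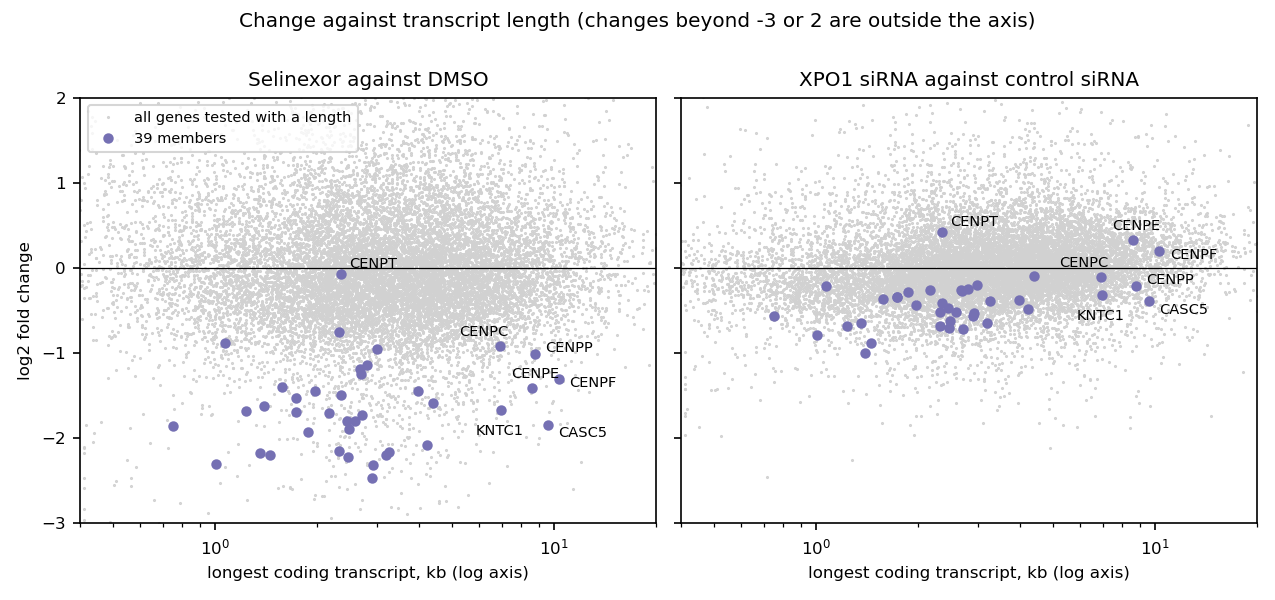
Log2 fold change against the length of the longest coding transcript (kb, log axis) for the 39 genes in purple and all tested genes with a length in grey, with selinexor on the left and the XPO1 siRNA on the right. On the right CENPE and CENPF, at 8.61 and 10.3 kb, lie above 0 and most shorter genes below it, and on the left all long genes lie between -1.84 and -0.92.

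Levels between genes were compared per kb of the same transcript length. CENPF had the highest level per kb with selinexor, 2702 ± 72.0, as it did with DMSO, 6644 ± 218 (SD, n = 3). BIRC5 stood at 1404 ± 82.3 per kb with selinexor and 4651 ± 106 with DMSO, and SKA2 at 1845 ± 426 and 3988 ± 96.4. CENPP had the lowest level per kb in both, 50.6 ± 4.05 with selinexor and 102 ± 5.50 with DMSO. With the XPO1 siRNA CENPF was again highest at 4438 ± 198, with BIRC5 at 4182 ± 114 and SKA2 at 3889 ± 60.3 per kb. With control siRNA the order differed, with BIRC5 highest at 6858 ± 90.3, then SKA2 at 4620.1 ± 63.0 and CENPF at 3859 ± 449. CENPE ranked 16 of the 39 with selinexor and 20 with DMSO, and 25 with the XPO1 siRNA and 33 with control siRNA. CENPT ranked 17 of the 39 with selinexor and 37 with DMSO, with levels per kb of 259.7 ± 32.4 and 271 ± 13.7.

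Of 29 other genes of the pathway, 24 were lower, 1 higher and 4 not called with selinexor, with a median log2 fold change of -1.06, where 26.3% of all genes were called lower and 22.9% higher. With the siRNA 21 were lower, 5 higher and 3 not called, with a median of -0.35, where 28.6% of all genes were called lower and 25.9% higher. Of 9 spindle checkpoint genes, 7 were lower with selinexor, and with the siRNA 6 were lower and 1 higher. The checkpoint ATPase TRIP13 had log2 fold changes of -2.15 with selinexor (662 ± 19.3, against 2932 ± 147 with DMSO) and -0.70 with the siRNA (2001 ± 50.1, against 3244 ± 82.2 with control siRNA). Of 7 other centromere proteins, 7 were lower with selinexor and 6 with the siRNA. The 3 kinetochore kinases AURKB, PLK1 and NEK2 were lower in both experiments. AURKB, the kinase of the passenger complex, had the smallest p of the 29 in each. It averaged 442 ± 17.0 with selinexor and 2207 ± 35.9 with DMSO (log2 fold change -2.32, SE 0.0803, limma adjusted p = 4.79e-07), and 1669 ± 43.5 with the XPO1 siRNA and 3053 ± 64.5 with control siRNA (log2 fold change -0.87, SE 0.0391, limma adjusted p = 8.37e-10).

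Of 8 motors, dynein and microtubule factors, 5 were lower and 1 higher with selinexor, and 5 lower and 3 higher with the siRNA. Among all genes 26.3% were called lower and 22.9% higher with selinexor, and 28.6% lower and 25.9% higher with the siRNA. Whether counts among 8 genes differ from these shares was not tested. KIF2C, a kinesin that shortens microtubules, fell in both, with log2 fold changes of -1.80 with selinexor and -0.63 with the siRNA. DYNC1H1, the dynein heavy chain, was higher in both, at 42823 ± 6358 with selinexor and 32224 ± 1199 with DMSO (log2 fold change 0.40, SE 0.113, limma adjusted p = 0.0186), and at 34209 ± 3207 with the XPO1 siRNA and 27764 ± 2753 with control siRNA (log2 fold change 0.30, SE 0.0695, limma adjusted p = 0.00229). The siRNA groups of DYNC1H1 overlapped, since control replicate 3 exceeded XPO1 siRNA replicate 1. XPO1 itself is known to bring RANGAP1 and RANBP2 to mitotic kinetochores. With selinexor both were lower, with log2 fold changes of -0.95 for RANGAP1 and -0.28 for RANBP2. With the siRNA RANGAP1 fell (log2 fold change -0.24, SE 0.0483, limma adjusted p = 0.000796) and RANBP2 rose (log2 fold change 0.33, SE 0.0382, limma adjusted p = 8.31e-06).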

How the data were processed

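Total RNA libraries that keep strand were made from IMR5 cells, 3 in each of 4 groups, which the sample titles name. The submitters' processing notes list STAR 2.7.3a, Partek, DESeq2 and the build hg19. The annotation and whether counting used strand are not given in the sources here. Each deposited value is a signal: the authors divided a gene's read count by the size factor of its library, for each of the 2 tables on its own. In the knockdown experiment, 3 further columns of per-sample values matched no sample and were left out, and 25 gene symbols that had become dates were restored from coordinates. Between 62.0% and 66.8% of low values were whole multiples of a step within 0.02 (chance gives 4%), which did not give back whole reads, and a count model was therefore not used. Estimated reads are each library's deposited sum rescaled by that step.

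The members and gene lists were chosen with earlier results of these data known. Tests were run in R 4.3.3 with limma 3.58.1 on log2(value + 1) for genes averaging at least 10 in a table, two-sided and with an intensity trend, and p-values were adjusted by Benjamini-Hochberg and called below 0.05. A contrast over 12 libraries and 4 group means gave the difference of the 2 effects. Alternatives were pseudocounts of 0.5 or 5, no filter or a mean of at least 50, equal totals or a 30% trimmed mean, leaving out single libraries, blocking on the replicate number, omitting the trend, and removing each library's lowess trend with transcript length or GC content. Lengths were matched to GENCODE 29 by symbol, with older symbols through RefSeq synonyms, for 82.4% of genes in the selinexor table and 83.3% of those in the knockdown table. Values in every library are given for the members with the largest and smallest change in each class and comparison, any called higher, the 6 with the smallest p in the difference, and CENPE and CENPF, and the others by their changes. Of other pathway genes, AURKB had the smallest p in both comparisons, and the other named genes were not chosen by p alone.

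On simulated data, 83.6% of 1.5-fold and 100% of 2-fold changes were recovered in the selinexor setting (17262 genes, 8 false calls) and in the knockdown setting (17137 genes, 6 false calls). In the simulated difference of effects (16607 genes, 19 false calls) these shares were 44.8% and 95.5%. The simulated libraries were independent negative binomial draws with a single fixed dispersion for all genes. No simulated library stood apart as selinexor replicate 1 did, so these figures do not carry over to that group. Changes below 1.5-fold were not simulated. Chi-square per gene between replicates was 2.94 to 59.3, above counting noise, and every library was kept as its own sample. Tables and figures were made with Python 3.11.15 (pandas 2.3.3, numpy 2.4.6) and drawn with matplotlib 3.10.9.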

Additional observations from a re-analysis of the deposited data

Results flagged for a closer look

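The change with selinexor was called lower than that with the siRNA for 38 of the 39 genes, and for 3 of these the fitted changes had opposite signs in the 2 experiments. CENPE and CENPF were known from earlier results to behave apart with the siRNA, and the sign of CENPT with selinexor is not established. CENPT, with no call for selinexor and a rise with the siRNA, had a difference of -0.50 on the log2 scale (SE 0.125, limma adjusted p = 0.00889). CENPE, which fell with selinexor and rose with the siRNA, had a difference of -1.74 (SE 0.150, limma adjusted p = 2.96e-06). CENPF had a difference of -1.51 (SE 0.110, limma adjusted p = 7.10e-07), and its rise with the siRNA was not called without control siRNA replicate 1 (log2 fold change 0.12). The differences kept their sign and call in all 22 alternatives, from -0.60 to -0.39 for CENPT, -1.82 to -1.52 for CENPE and -1.58 to -1.35 for CENPF.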

How the results depend on the processing

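Of the 39 genes, 38 were called with selinexor under each of 16 alternatives, and 34 to 38 with the siRNA. In the main fits 49.2% of all genes were called with selinexor, 54.5% with the siRNA and 31.8% in the difference. With libraries left out singly the counts among the 39 were 38 with selinexor, 35 to 37 with the siRNA and 38 to 39 for the difference of effects. Over all genes, 6540 to 11113 were then called with selinexor, 8428 to 9148 with the siRNA and 4359 to 7634 in the difference. The medians of the 39 genes were then -1.73 to -1.58 with selinexor and -0.417 to -0.387 with the siRNA. Their rho with length was 0.106 to 0.167 with selinexor and 0.427 to 0.481 with the siRNA. Equal totals moved the siRNA median to -0.301 and the share of higher calls among all genes with the siRNA from 47.5% to 62.4%. Removing the length trend moved rho to 0.119 with selinexor and 0.234 with the siRNA. Signs turned for CENPT with selinexor, to 0.00844 at equal totals and, with libraries left out singly, a range of -0.131 to 0.0382 whose upper end is without selinexor replicate 3, and for CENPO with the siRNA, to 0.00027 at equal totals, none of them called. The cause was not tested. Without an intensity trend ZW10 was not called with the siRNA (limma adjusted p = 0.0610). NSL1 passed the difference test at equal totals (limma adjusted p = 0.0320).

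Equal replicate numbers did not pair the samples (correlations of deviations -0.042 to 0.119 with selinexor and -0.104 to -0.020 with the siRNA), and a replicate block left 38, 37 and 38 genes called with selinexor, with the siRNA and in the difference. Replicates number 3 per group, depth is known only as an estimate, and each treatment was measured at 1 time and, for selinexor, at 1 dose.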
